A study of Labrus bergylta with 24 samples.

Results

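Of the 27392 gene models measured in the intestine of the ballan wrasse (Labrus bergylta), 76 matched a set of smooth muscle contractile gene names. The set also took in names of skeletal or heart muscle genes, such as acta1, alpha cardiac actin, MYL2 and CASQ1. The 76 models were taken by name alone, with letter case ignored. No measured value entered this rule, but it was set with earlier results of these data known. By role there were 6 models of actin, 18 of myosin heavy chain, myosin light chain or myosin light chain kinase, 4 of myosin phosphatase targeting subunits, 26 of proteins that sit on the actin filament, 3 of desmin, 9 of proteins that anchor the filaments to the membrane, 5 of calsequestrin and 5 of the transcription factors SRF and myocardin. The 76 models bore 41 distinct names, 16 of them with 1 model and 25 with at least 2, and no model used here matched the names ACTA2, ACTG2 or KCNMB1. The names come from similarity to genes of other species, and only 25 of the 76 are spelled as a RefSeq symbol of this fish, so a name such as alpha cardiac actin or acta1b does not say in which muscle the wrasse gene is used.

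The intestinal wall moves its content by peristalsis, which is driven by smooth muscle. When calcium rises in a smooth muscle cell, calmodulin activates myosin light chain kinase (MYLK), which phosphorylates the regulatory light chain and lets smooth muscle myosin (MYH11) pull on actin, and myosin phosphatase reverses the step. Caldesmon, calponin, tropomyosin, transgelin and smoothelin bind the actin filament, desmin links the contractile units, talin, vinculin and filamin hold the filaments to integrins at dense plaques of the membrane, and SRF with myocardin switches many of these genes on.

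RNA was sequenced from whole tissue of 4 consecutive segments of the intestine, of which segment 1 is the foremost and segment 4 the hind-gut. The 6 fish came from a commercial farm, no treatment is named for them, and by the labels each fish gave all 4 segments, so that there were 24 libraries with 6 per segment. The question put to these genes is whether the contractile machinery is expressed alike along a gut that has no stomach. In such bulk samples, fewer muscle cells and less RNA per muscle cell cannot be told apart. Nor can either be told from a change in other cells that hold the same RNA.

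Values are normalized counts, the reads of a gene model scaled by the size factor of each library. They are not divided by gene length, so levels are compared between segments and not between genes. Reads per library ran from 7867202 to 29650315, with a median of 19657831.5. Models had to reach 10 in 6 or more libraries to be tested, which 19515 did. Their log2(value + 1) entered 1 limma fit of the 4 segments, and a model was called at a Benjamini-Hochberg adjusted p under 0.05 over all models tested. Log2 fold changes are on this log2(value + 1) scale, which understates the change of low genes. Of the 76 models, 55 passed the filter on low values and 21 did not.

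A pair of features of the libraries bear on what follows. Fish 2 moved less like the others: of the 2930 gene models that differed between segments 4 and 3 in the other 5 fish, 65.5% moved the same way in fish 2, against 96.6% to 97.9% for each of the other fish measured in the same manner. For segment 2 against segment 1 the share was 77.2% in fish 2 and 92.8% to 100% in the others. The segment 4 library of fish 5 read high for genes of skeletal muscle: 28 gene models of skeletal muscle summed to 71849 in it and to between 93.0 and 246 in each of the other 23 libraries. The deposited labels were used throughout, and whether labels within fish 2 were exchanged was not tested, so the values given for fish 2 rest on them. The methods of the study count fewer fish and more gut libraries than the labels do, a difference that could not be settled. Results on the contractile models that are lost without fish 2 or that library are given with both values.

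Most of the contractile genes differed little between the ends of the intestine, and so did most of all gene models. Between segments 4 and 1, the ends of the series, 40 of the 55 models tested lay within 0.5 of 0 on the log2 scale, and 12 were called (21.8%), 8 higher and 4 lower in segment 4. Over all 19515 models 31.9% were called in this comparison, 17.1% higher and 14.8% lower. The median log2 fold change was 0.18 over the 55 models and 0.04 over all models, and the median size of the change was 0.28 against 0.38. With that median, most of all models also lay within 0.5 of 0. The change exceeded 1 in size in 5 of the 55 (9.09%) and in 16.3% of all models. Without the segment 4 library of fish 5, 10 of the 55 were called (28.1% of all models). Without fish 2 there were 12 (33.0% of all), and with fish as a block there were 16 (41.8% of all).

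Shorter steps moved fewer of them. Between segments 2 and 1, 1 of the 55 was called (0.676% of all models), and it was an alpha actin model. Between segments 3 and 2 none passed in limma (2.08% of all models). An unadjusted p under 0.05 in limma was reached by 2 of the 55 and by 2289 of all 19515 models. For the same step edgeR called 0 (1.61% of all) and DESeq2 1 (3.48% of all). Between segments 4 and 3, 4 were higher and 2 lower, where 5.21% of all models were higher and 5.82% lower. Segment 3 against segment 1 gave 4 higher and 2 lower (13.9% of all called, 7.13% higher and 6.81% lower), and segment 4 against segment 2 gave 4 higher and 3 lower (20.5% of all called, 9.72% higher and 10.8% lower). With fish as a block the counts became 2 between segments 2 and 1 (1.92% of all), 1 between segments 3 and 2 (5.45%), 9 between segments 4 and 3 (18.3%), 11 between segments 3 and 1 (23.2%) and 14 between segments 4 and 2 (30.2%). Over the 4 segments together the moderated F test of limma called 11 of the 55, where it called 27.5% of all models. The comparisons share libraries and are not independent of each other.

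**Figure D1:**
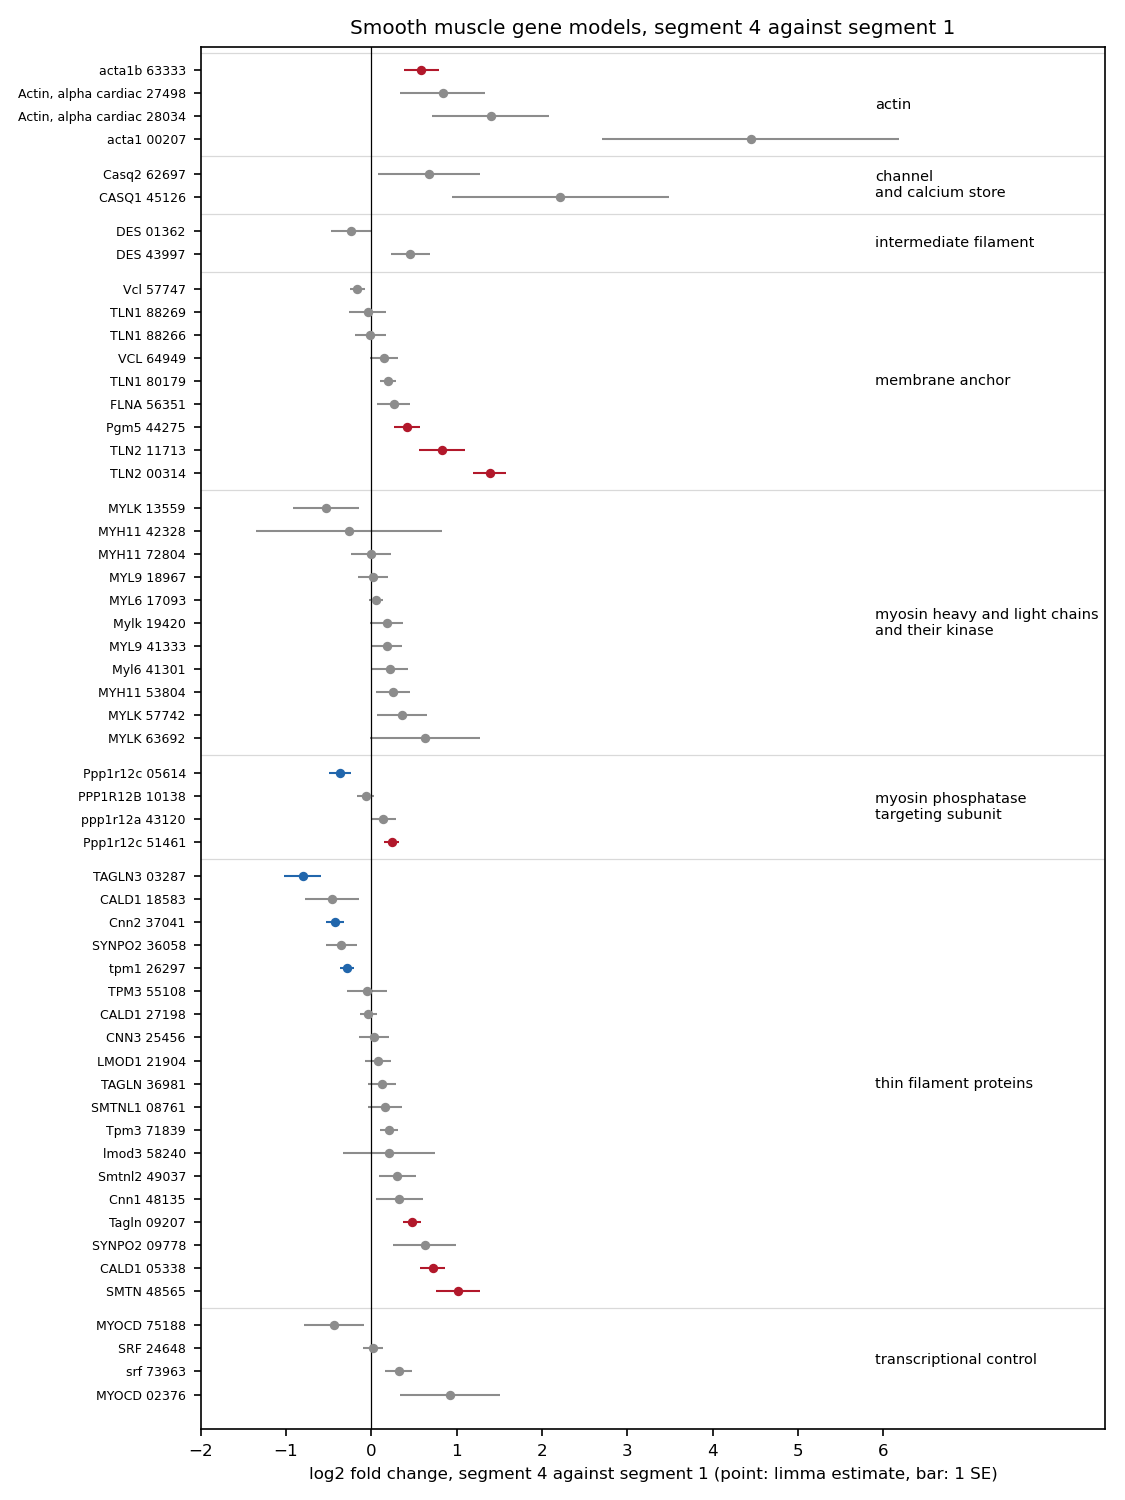
Log2 fold change between segment 4 and segment 1 (horizontal axis, log2(value + 1) scale) of each of the 55 contractile gene models tested, grouped by role, with bars of 1 standard error from limma. The 8 models called higher in segment 4 are red, the 4 called lower are blue and the others grey, and 40 of the 55 points lie between -0.5 and 0.5.

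Among the actins, which form the thin filament, both models named alpha cardiac actin were high in the middle of the intestine and low at its anterior end. In LABE_00027498 the values ran from 19.7 to 89.3 with a median of 49.8 in segment 1, from 151 to 1041 with a median of 349.7 in segment 2, from 142 to 863 with a median of 513 in segment 3, and from 27.3 to 144 with a median of 85.1 in segment 4. Every library of segments 2 and 3 lay above every library of segment 1, and every library of segment 2 above every library of segment 4. The rise was 8.51-fold in segment 2 (log2 3.09, SE 0.50, adjusted p = 0.00172) and 10.3-fold in segment 3 (log2 3.37, SE 0.50, adjusted p = 4.06e-05), in 6 of 6 fish each time.

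The same model fell again towards the hind-gut, by 2.53 on the log2 scale between segments 3 and 4 (SE 0.50, adjusted p = 0.000809) and fell by 2.25 between segments 2 and 4 (SE 0.50, adjusted p = 0.00163). The fall from segment 3 to segment 4 was seen in 5 of 6 fish. Fish 2 was the exception, with 151, 142 and 144 in segments 2, 3 and 4. These 4 calls held whichever fish was left out, with adjusted p up to 0.0259. Segment 4 did not differ from segment 1 past the threshold (log2 0.84, SE 0.50, adjusted p = 0.216).

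The second alpha cardiac actin model, LABE_00028034, had medians of 14.9, 84.5, 177 and 41.8 in segments 1 to 4. The lowest and highest values were 1.04 and 86.4 in segment 1, 40.3 and 171 in segment 2, 89.2 and 481 in segment 3, and 11.4 and 134 in segment 4. Segments 1 and 3 did not overlap, and all 6 fish were lower in segment 4 than in segment 3. Its 10.5-fold rise between segments 1 and 3 was called (log2 3.39, SE 0.68, adjusted p = 0.00129). With fish as a block, 3 more of its differences passed, the rise in segment 2 (log2 2.40, adjusted p = 0.134, 0.0135 with the block), the fall from segment 3 to segment 4 (log2 -1.99, adjusted p = 0.0648, 0.00688 with the block) and the difference between segments 4 and 1 (log2 1.40, adjusted p = 0.128, 0.0297 with the block). Both models carry the same name and may share reads.

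The model acta1b (LABE_00063333), a skeletal alpha actin by its zebrafish name, was higher in the hind-gut than at the anterior end. It stood at 4957 to 10269 with a median of 7429 in segment 1, 6162 to 13039 with a median of 8383 in segment 2, 7812 to 12172 with a median of 10656 in segment 3, and 8946 to 15286 with a median of 10722 in segment 4. All 6 fish were higher in segment 4 than in segment 1 while the groups overlapped. The difference was called (log2 0.58, SE 0.21, adjusted p = 0.0331), and the call was lost without fish 1, fish 4 or fish 5 (adjusted p up to 0.185) and without the segment 4 library of fish 5 (adjusted p = 0.0521). The model acta1 (LABE_00000207), named here after its values were seen, stood at 75.7 or less in 23 libraries and at 31948 in segment 4 of fish 5, and its difference between segments 4 and 1 was not called (log2 4.45, SE 1.74, adjusted p = 0.0539, 0.0151 with fish as a block and 0.155 without that library).

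**Figure D2:**
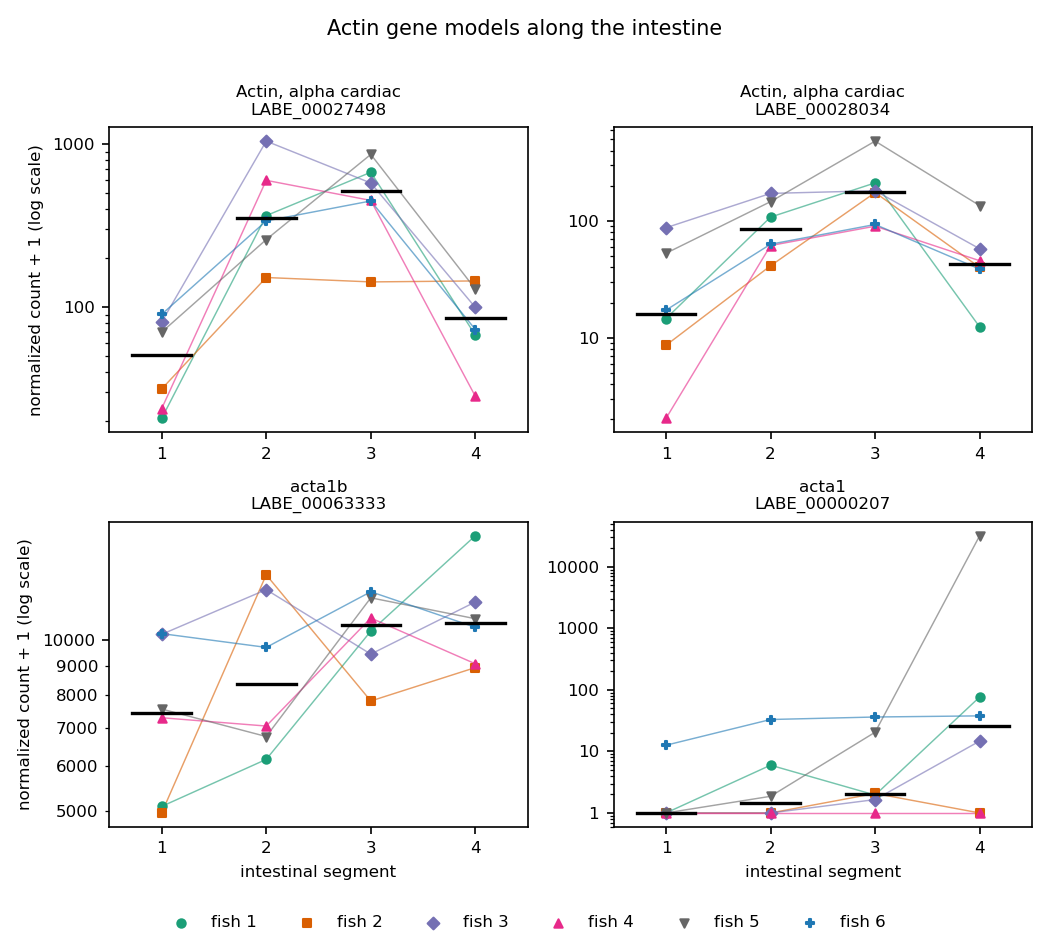
Normalized count plus 1 (vertical log axis) of 4 actin models in each of the 24 libraries by segment, with lines that join the libraries of a fish and a black bar at the median of each segment. Both alpha cardiac models peak in segments 2 and 3 and drop in segment 4, acta1b rises from a median of 7429 to 10722, and acta1 is high in segment 4 of fish 5 alone.

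No myosin or kinase model was called between the end segments. Of the 11 models tested, none passed between segments 4 and 1 in limma without fish as a block (31.9% of all models) or with it (41.8%). In the fit without the block none reached an unadjusted p under 0.05, which 7919 of all 19515 models did. The median size of the change in the 11 models was 0.22 on the log2 scale. MYL6 (LABE_00017093), the essential light chain of smooth muscle and non-muscle myosin, had medians of 12734, 13176, 13156 and 13566 in segments 1 to 4 and ranged from 11087 to 14505 over all libraries. Its 4 segments overlapped throughout, and segment 4 differed from segment 1 by 0.05 on the log2 scale (SE 0.08, adjusted p = 0.676). Myl6 (LABE_00041301) differed by 0.22 (SE 0.22, adjusted p = 0.496).

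The kinase model MYLK (LABE_00013559) had falling medians of 8603, 7889, 5669 and 5247, but its range of 2825 to 11278 in segment 1 took in every value of segment 4 (4099 to 5797). The difference of -0.53 on the log2 scale did not pass (SE 0.38, adjusted p = 0.32), although 5 of 6 fish were lower in segment 4. The other 3 kinase models named MYLK, named here to complete the group, had log2 fold changes of 0.18, 0.36 and 0.62 with adjusted p of 0.381 or more. Both models of the regulatory light chain MYL9, which the kinase phosphorylates, differed by 0.02 and 0.18 (adjusted p of 0.468 or more).

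A single model of the group was called between any 2 segments. MYH11 (LABE_00042328), one of 4 models named for the smooth muscle heavy chain, stood at 9.33 to 551 with a median of 160 in segment 1, at 2.59 to 659 with a median of 23.2 in segment 2, at 1.01 to 49.8 with a median of 6.03 in segment 3, and at 34.5 to 142 with a median of 79.6 in segment 4. It was lower in segment 3 than in segment 1 in 6 of 6 fish and higher in segment 4 than in segment 3 in 6 of 6 fish, although the groups overlapped. The log2 fold changes were -3.65 (SE 1.09, adjusted p = 0.0254) and 3.39 (SE 1.09, adjusted p = 0.0449). The first was lost without fish 1 or fish 3 (adjusted p up to 0.0886), and the second without fish 1, fish 3, fish 4 or fish 5 (adjusted p up to 0.144), without the segment 4 library of fish 5 (0.0818), in edgeR (0.122) and in DESeq2 (0.0581).

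The other MYH11 models that passed the filter, LABE_00053804 and LABE_00072804, which are named here to complete the set, had medians of 947 to 1174 and of 644 to 723 over the 4 segments. Their log2 fold changes between segments 4 and 1 were 0.25 (SE 0.20, adjusted p = 0.373) and -0.00 (SE 0.23, adjusted p = 0.994). The difference in segment 3 was thus called in 1 of the 3 tested models of this name.

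Myosin phosphatase is brought to myosin by its targeting subunits, and 2 models of the same subunit moved in opposite directions. Ppp1r12c (LABE_00051461) had medians of 1508, 1697, 1893 and 1818 in segments 1 to 4, with 1395 to 1882 in segment 1, 1810 to 2227 in segment 3 and 1682 to 1944 in segment 4. All 6 fish were higher in segments 3 and 4 than in segment 1, with some overlap of the groups. The log2 fold changes were 0.35 for segment 3 (SE 0.09, adjusted p = 0.00639) and 0.24 for segment 4 (SE 0.09, adjusted p = 0.035). The first was lost without fish 3 or fish 4 (adjusted p up to 0.0634), and the second without fish 1, fish 3, fish 4, fish 5 or fish 6 (adjusted p up to 0.117).

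Ppp1r12c (LABE_00005614) had medians of 3978, 3623, 3196 and 3106 instead, with 3668 to 4970 in segment 1 and 2964 to 3863 in segment 4. Segment 4 was lower in 5 of 6 fish, by 0.37 on the log2 scale (log2 -0.37, SE 0.12, adjusted p = 0.0268). This call was lost without fish 4, fish 5 or fish 6 (adjusted p up to 0.137), without the segment 4 library of fish 5 (0.0575) and after quantile normalization (0.208). With fish as a block the model was also lower in segment 3 than in segment 1 (log2 -0.34, adjusted p = 0.0695, 0.0129 with the block) and in segment 4 than in segment 2 (log2 -0.25, adjusted p = 0.164, 0.0496 with the block). The targeting subunits ppp1r12a (LABE_00043120) and PPP1R12B (LABE_00010138) differed between segments 4 and 1 by 0.14 and -0.07 (adjusted p = 0.499 and 0.679). In segment 3 against segment 1, ppp1r12a passed with the block alone (log2 0.30, adjusted p = 0.187, 0.0464 with the block).

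Gene models of the same name could be compared with each other within a library, which sets aside the size factor. There were 27 pairs of tested models over 16 names. The log2 ratio of a pair was compared between segments 4 and 1 with an exact two-sided permutation test of 924 splits, whose smallest p is 0.0021645, with Benjamini-Hochberg adjustment over the 27 pairs. The splits moved libraries across fish, although by the labels each fish gave both segments. In 2 pairs the ratio differed past the threshold. No share of same-name pairs among all gene models is given here. Whether such shifts are particular to the contractile genes was thus not tested. The ratio of Ppp1r12c LABE_00005614 to LABE_00051461 fell from a mean of 1.44 to 0.83 on the log2 scale (change -0.60, exact permutation adjusted p = 0.0292), and that of CALD1 LABE_00005338 to LABE_00027198 rose from 0.71 to 1.46 (change 0.75, exact permutation adjusted p = 0.0292). Both reached the smallest p the test can give. When each fish was taken as its own control, no pair passed, the lowest adjusted p of the exact sign-flip test being 0.169. Its 64 sign flips allow no p below 0.03125, so none could pass unless most of the 27 pairs reached that value. The sign-flip test thus cannot decide on the 2 pairs.

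**Figure D3:**
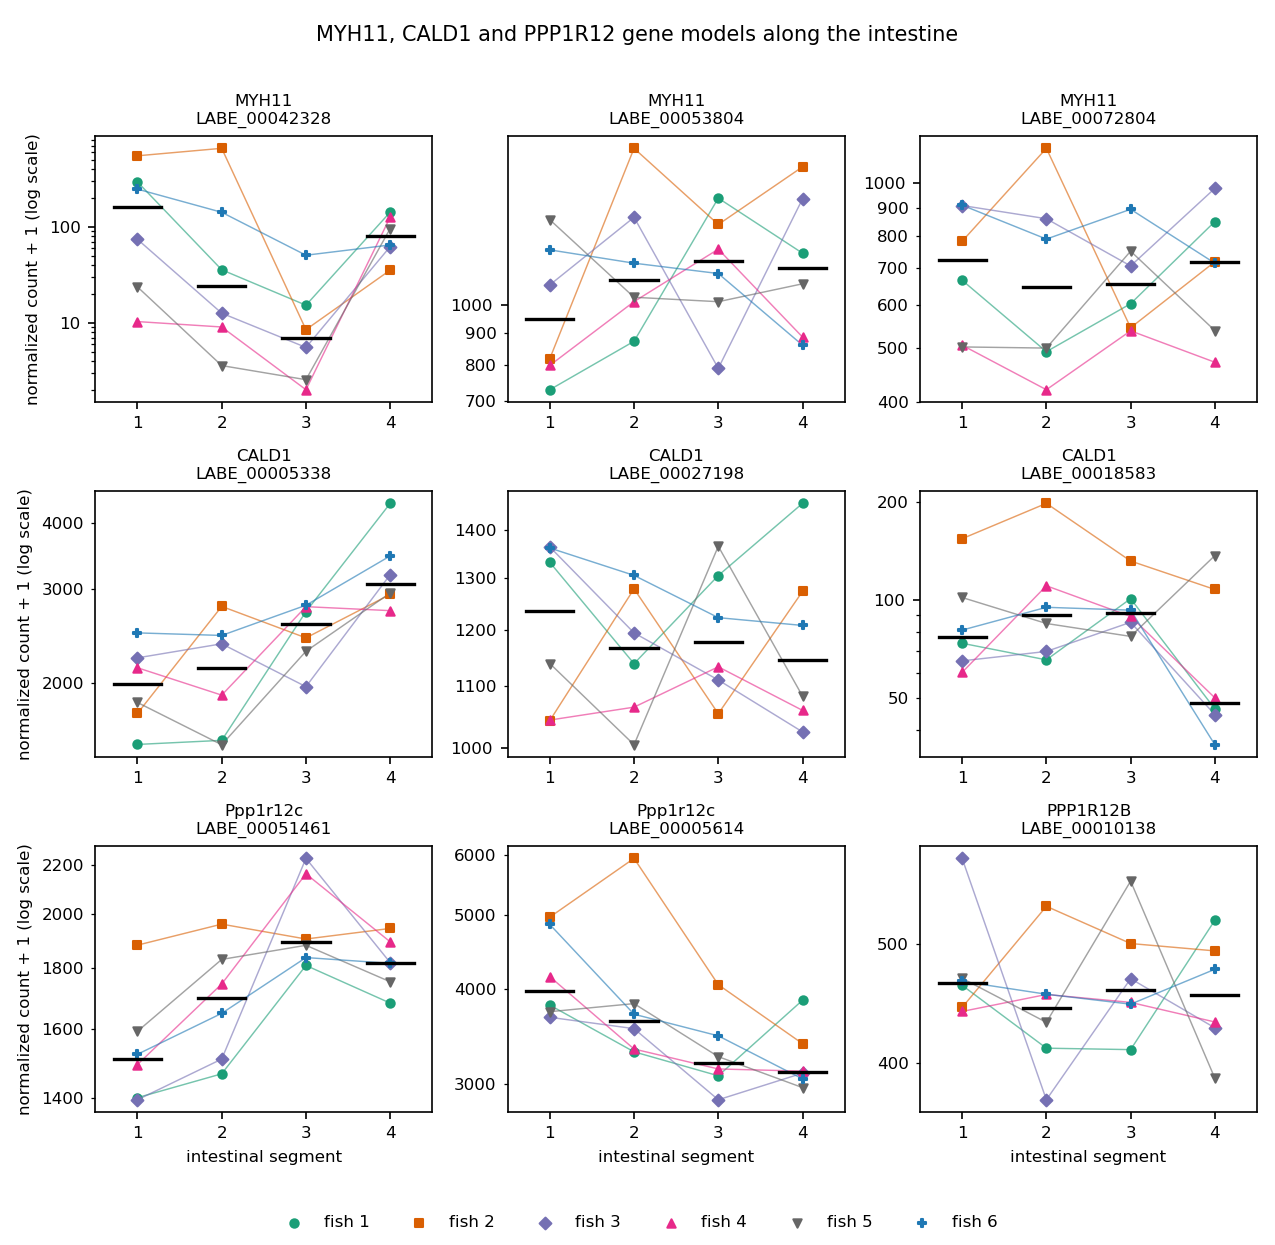
Normalized count plus 1 (vertical log axis) in each library by segment for 3 models named MYH11, 3 named CALD1, 2 named Ppp1r12c and 1 named PPP1R12B, with lines that join the libraries of a fish and bars at the medians. MYH11 LABE_00042328 drops to a median of 6.03 in segment 3 while the other MYH11 models stay at medians of 644 or more, and the Ppp1r12c models approach each other.

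Of the 12 contractile models called between segments 4 and 1, 6 belong to the proteins on the actin filament. Of 19 models tested, 3 were higher and 3 lower in segment 4 than in segment 1 (31.6% called, against 31.9% of all models), and the median size of the change was 0.31 on the log2 scale. Smoothelin, transgelin and caldesmon were the 3 that rose. SMTN (LABE_00048565), smoothelin, a marker of contractile smooth muscle in mammals, stood at 234 to 525 with a median of 401 in segment 1, at 226 to 864 with a median of 323 in segment 2, at 221 to 572 with a median of 382 in segment 3, and at 615 to 913 with a median of 786 in segment 4. No library of segments 1 or 3 reached the lowest of segment 4, and in segment 2 only fish 2 did, at 864.

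SMTN was 2.03-fold higher in segment 4 than in segment 1 (log2 1.02, SE 0.26, adjusted p = 0.00357), and higher than in segment 2 (log2 1.10, SE 0.26, adjusted p = 0.00288) and segment 3 (log2 1.04, SE 0.26, adjusted p = 0.00725). The difference from segment 3 was lost without fish 3 (adjusted p = 0.0739).

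Tagln (LABE_00009207), one of 2 models of transgelin, an actin-binding protein abundant in smooth muscle, stood at 4229 to 5364 in segment 1, 3925 to 5665 in segment 2, 4280 to 5290 in segment 3 and 5562 to 7787 in segment 4, with medians of 4761, 4464, 5023 and 6433. Every segment 4 library was above every library of segments 1 and 3. The log2 fold changes of segment 4 were 0.47 against segment 1 (SE 0.10, adjusted p = 0.00102), 0.52 against segment 2 (adjusted p = 0.000559) and 0.44 against segment 3 (adjusted p = 0.00462). The second transgelin model, TAGLN (LABE_00036981), named here for the comparison, had medians of 9555, 9960, 10731 and 10034 and did not pass (log2 0.13, SE 0.16, adjusted p = 0.604).

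Caldesmon, which holds back the myosin ATPase on the filament, was higher in 1 of its 3 models. CALD1 (LABE_00005338) had medians of 1984, 2131, 2576 and 3076, with 1529 to 2483 in segment 1 and 2735 to 4361 in segment 4. The end segments did not overlap. It was 1.64-fold higher in segment 4 than in segment 1 (log2 0.72, SE 0.15, adjusted p = 0.000751) and higher than in segment 2 (log2 0.66, SE 0.15, adjusted p = 0.00241). The other CALD1 models, LABE_00027198 and LABE_00018583, differed by -0.04 and -0.46 between segments 4 and 1 (adjusted p = 0.835 and 0.298). The second of them was lower in segment 4 than in segment 2 with the block (log2 -0.65, adjusted p = 0.164, 0.0372 with the block). That difference was also called without the segment 4 library of fish 5.

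A tropomyosin model, calponin 2 and transgelin 3 fell along the same axis. The other tested tropomyosin models, listed to complete the group, were not called between segments 4 and 1 without the block. TPM3 (LABE_00055108) was 0.96-fold and Tpm3 (LABE_00071839) 1.15-fold in segment 4 against segment 1. The model tpm1 (LABE_00026297), tropomyosin, the rod that lies along the filament, stood at 11280 to 13816 with a median of 13215 in segment 1, and its medians in segments 2, 3 and 4 were 12160, 9966 and 10622. All 6 fish were lower in segments 3 and 4 than in segment 1, and the highest values there, 11365 and 11800, overlapped it only above its lowest library. The log2 fold changes were -0.33 for segment 3 (SE 0.08, adjusted p = 0.00729) and -0.28 for segment 4 (SE 0.08, adjusted p = 0.0103). The first was lost without fish 4 (adjusted p = 0.0538) and the second without fish 1 (0.0537), and neither difference was called after quantile normalization (0.353 and 0.232). With fish as a block the step from segment 2 to segment 3 passed as well (log2 -0.24, adjusted p = 0.171, 0.0457 with the block), as did segment 4 against 2 (log2 -0.19, adjusted p = 0.119, 0.0438 with the block).

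Cnn2 (LABE_00037041), calponin 2, which in mammals is found in non-muscle cells as well as in smooth muscle, stood at 2992 to 3555 in segment 1 and 2056 to 3011 in segment 4, with medians of 3316, 3260, 2761 and 2505. All 6 fish were lower in segment 4 than in segment 1 (log2 -0.42, SE 0.10, adjusted p = 0.0025). The difference from segment 2 also passed (log2 -0.36, SE 0.10, adjusted p = 0.0128), and was lost without fish 3 (adjusted p = 0.077). Segment 3 was below segment 1 with the block alone (log2 -0.23, adjusted p = 0.146, 0.0447 with the block).

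TAGLN3 (LABE_00003287), a transgelin that in mammals is known from neurons, was a low gene here, with medians of 83.0, 73.1, 78.5 and 48.0. Its segment 4 values of 37.6 to 67.9 lay below those of segment 1 in 6 of 6 fish, though segment 1 ran from 53.9 to 136. It was lower in segment 4 than in segment 1 (log2 -0.80, SE 0.22, adjusted p = 0.00625), segment 2 (log2 -0.67, adjusted p = 0.0301) and segment 3 (log2 -0.72, adjusted p = 0.0314). The last 2 calls were lost without the segment 4 library of fish 5 (adjusted p = 0.0742 and 0.0819) and without fish 1, fish 3 or fish 5, and the last without fish 6 too (adjusted p up to 0.106 and 0.188).

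The other 13 models of the group had log2 fold changes between segments 4 and 1 of -0.46 to 0.62 and none was called in the fit without fish. Tpm3 (LABE_00071839) passed once fish was a block (log2 0.21, adjusted p = 0.164, 0.0236 with the block), and so did its difference from segment 2 (log2 0.19, adjusted p = 0.24, 0.0429 with the block). The 13 include calponin 1 (Cnn1, 0.33), leiomodin 1 (LMOD1, 0.07) and both synaptopodin 2 models (0.62 and -0.35), which are listed here to account for the group. CNN3 (LABE_00025456), calponin 3, passed with the block alone in segment 3 against 1 (log2 -0.35, adjusted p = 0.0051 with the block) and in segment 4 against 3 (log2 0.39, adjusted p = 0.00254 with the block), and was picked out for this.

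**Figure D4:**
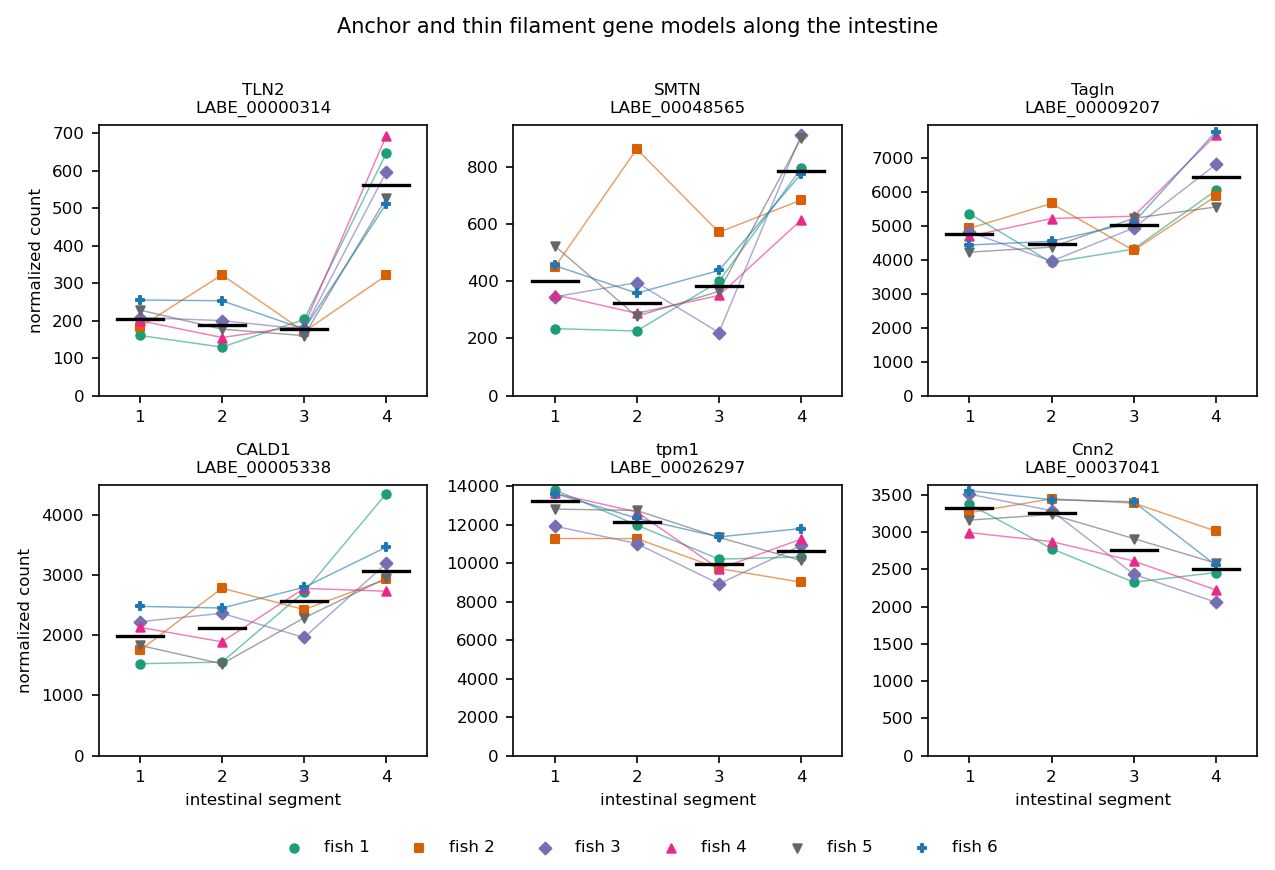
Normalized count (vertical linear axis from 0) in each library by segment for TLN2, SMTN, Tagln, CALD1, tpm1 and Cnn2, with lines that join the libraries of a fish and a bar at the median of each segment. TLN2, SMTN, Tagln and CALD1 are highest in segment 4, and tpm1 and Cnn2 fall from medians of 13215 and 3316 in segment 1 to 10622 and 2505 in segment 4.

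Of the 9 anchor models, all of which were tested, 3 were higher in segment 4 than in segment 1 and none lower (33.3% called, against 31.9% of all models). The lowest p-values were those of a model of talin 2, which links integrins to actin. TLN2 (LABE_00000314) stood at 160 to 255 with a median of 204 in segment 1, at 129 to 322 with a median of 189 in segment 2, at 160 to 203 with a median of 177 in segment 3, and at 321 to 694 with a median of 562 in segment 4. Segment 4 lay wholly above segments 1 and 3, and fish 2 was both the lowest library of segment 4 and the highest of segment 2.

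TLN2 was 2.62-fold higher in segment 4 than in segment 1 (log2 1.39, SE 0.19, adjusted p = 4.37e-06), with log2 fold changes of 1.44 against segment 2 (adjusted p = 4.14e-06) and 1.58 against segment 3 (adjusted p = 1.94e-06). The second model of the name, TLN2 (LABE_00011713), stood at 30.1 to 59.6 with a median of 51.1 in segment 1 and at 58.7 to 128 with a median of 86.7 in segment 4, higher in 6 of 6 fish. It rose by 0.82 on the log2 scale (SE 0.27, adjusted p = 0.0215), a call lost without fish 3 or fish 4 (adjusted p up to 0.0863).

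Pgm5 (LABE_00044275), a relative of phosphoglucomutase that sits at adherens-type junctions of muscle, had medians of 798, 844, 932 and 968. Segment 4 (886 to 1382) overlapped segment 1 (620 to 1010) and was higher in 4 of 6 fish, with a log2 fold change of 0.42 (SE 0.15, adjusted p = 0.037). This call was lost without fish 1, fish 2, fish 4 or fish 5 (adjusted p up to 0.112). The difference from segment 2 passed with fish as a block alone (log2 0.39, adjusted p = 0.0712, 0.0307 with the block). TLN1 (LABE_00080179), talin 1, was higher in segment 3 than in segment 1 (medians 3775 and 2912, log2 0.31, SE 0.09, adjusted p = 0.0225), which was lost without fish 3, fish 4, fish 5 or fish 6 (adjusted p up to 0.127). FLNA (LABE_00056351), filamin A, which crosslinks actin, differed between segments 4 and 1 by 0.26 (SE 0.19, adjusted p = 0.337). The other 2 models of talin 1 and both of vinculin, listed to account for the group, had log2 fold changes of -0.16 to 0.15 and were not called, though Vcl (LABE_00057747) was lower in segment 4 than in segment 3 with the block (log2 -0.23, adjusted p = 0.0798, 0.0391 with the block).

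Neither of the 2 tested models of desmin, the muscle intermediate filament, was called between any 2 segments without the block. Between segments 4 and 1, 31.9% of all models were called. DES (LABE_00043997) stood at 6588 to 10247 with a median of 8401 in segment 1, 4216 to 17090 with a median of 7204 in segment 2, 7572 to 9962 with a median of 9411 in segment 3, and 9759 to 16283 with a median of 10734 in segment 4. The highest value of all, in segment 2, belonged to fish 2. Segment 4 differed from segment 1 by 0.46 (SE 0.23, adjusted p = 0.132) and from segment 2 by 0.61 (SE 0.23, adjusted p = 0.0603, 0.0481 with fish as a block). DES (LABE_00001362) was low, at 15.1 to 39.3 in all libraries, and differed by -0.24 between the end segments (SE 0.24, adjusted p = 0.481).

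Calsequestrin binds calcium inside the sarcoplasmic reticulum. CASQ1 (LABE_00045126) varied widely between fish, at 0 to 175 with a median of 23.3 in segment 1, 1.03 to 189 with a median of 65.1 in segment 2, 27.6 to 274 with a median of 120 in segment 3, and 10.02 to 630 with a median of 151 in segment 4. The groups overlapped at every step, but within fish segment 3 was above segment 1 in 6 of 6, and segment 4 above segment 1 in 5 of 6. No difference passed without the fish in the model (segment 3 against 1: log2 2.15, SE 1.27, adjusted p = 0.304, and segment 4 against 1: log2 2.22, SE 1.27, adjusted p = 0.2). Both did with the block (adjusted p = 0.00862 and 0.00354), as did segment 4 against 2 (log2 1.79, adjusted p = 0.368, 0.0202 with the block). Casq2 (LABE_00062697) differed by 0.68 between segments 4 and 1 (SE 0.60, adjusted p = 0.434).

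None of the 4 tested models of the transcription factors that drive the contractile genes was called between any 2 segments. Between segments 4 and 1, 31.9% of all models were called. SRF (LABE_00024648) had medians of 306, 308, 315 and 322 and differed by 0.02 between segments 4 and 1 (SE 0.12, adjusted p = 0.928). The second model, srf (LABE_00073963), had medians of 126, 126, 131 and 159 and differed by 0.32 (SE 0.16, adjusted p = 0.134). Myocardin, the cofactor that gives SRF its preference for muscle genes, was low in whole tissue: MYOCD (LABE_00002376) stood at 0 to 33.4 and MYOCD (LABE_00075188) at 11.8 to 55.8 over all libraries. Their differences of 0.92 and -0.43 did not pass (SE 0.58 and 0.35, adjusted p = 0.251 and 0.383).

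The 21 models that did not pass the filter on low values were mostly high in a single library. In 16 of them (76.2%) the highest value of the 24 libraries was in segment 4 of fish 5, a share of 12.7% among all 7877 gene models that did not pass, and in 11 of them that library held at least 50 while no other library exceeded 29.6. Examples, chosen after their values were seen, are CASQ1 (LABE_00003820) at 2558 against 3.81 or less elsewhere, DES (LABE_00019807) at 1295 against 2.63 or less, and TPM1 (LABE_00055112) at 292 against 6.62 or less. Of the 21 models, 8 stayed under 20 in every library, and 5 had their highest value in another library. Among the models that passed, 6 of 55 were highest in this library, where 8.998% of all tested models were.

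In the same library 15 of the 28 skeletal muscle models reached at least 100, which 1 of them did in any other library, and 4 of the 28 were at 0. MYLPF, a light chain of fast skeletal muscle, stood at 19119, and CKM, the muscle creatine kinase, at 11320, against highest values elsewhere of 31.6 and 17.0. A list of 43 troponin, titin and cardiac models summed to 19676 there and to 678 to 4994 in the other libraries. The contractile models that follow this library are therefore read as values of 1 sample, and acta1, discussed with the actins, is one of them.

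**Figure D5:**
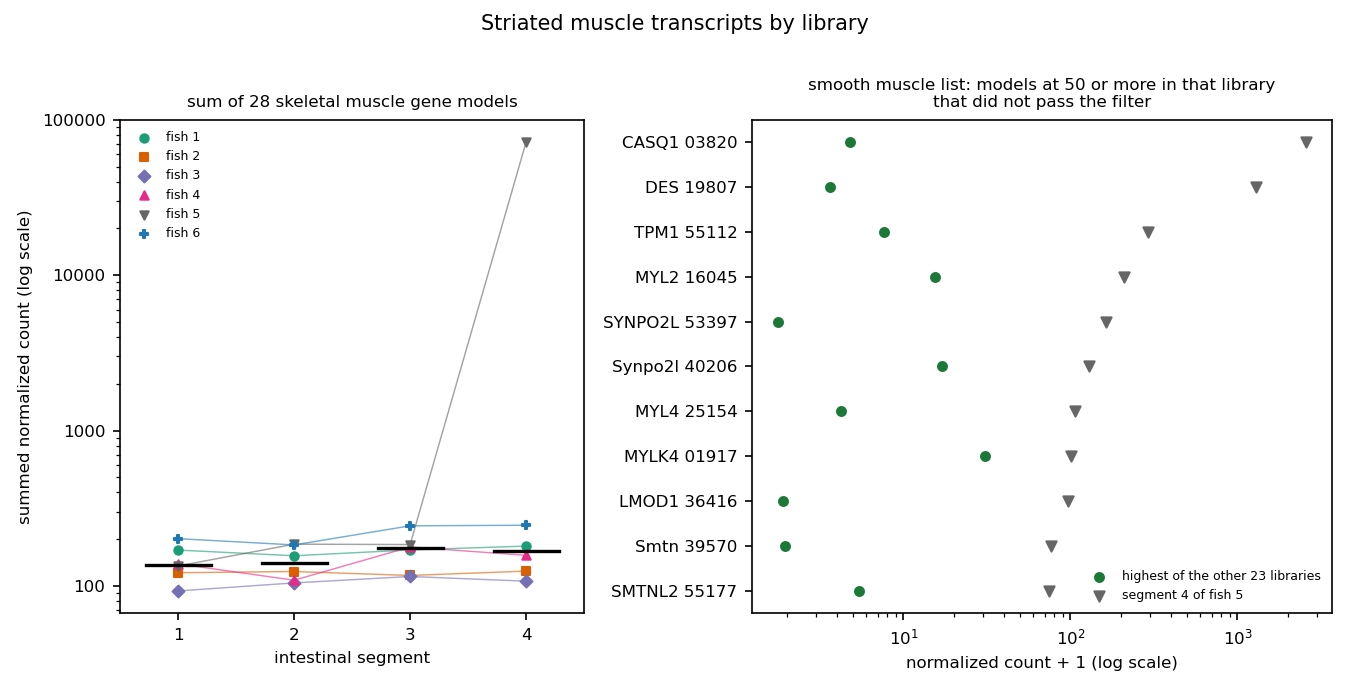
Left, summed normalized count of 28 skeletal muscle gene models per library by segment (vertical log axis), with the segment 4 library of fish 5 at 71849 and the other 23 at 93.0 to 246. Right, the 11 contractile gene models that failed the filter and reached at least 50 in that library (log axis). The value in that library is a grey triangle and the highest value of the other 23 libraries a green circle.

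Libraries of a segment also differed together. The sum over the 76 models was 98071 to 125637 with a median of 107140 in segment 1, 91819 to 152895 with a median of 106002 in segment 2, 98742 to 123251 with a median of 112518 in segment 3, and 107275 to 149191 with a median of 120444 in segment 4. The highest sum of segment 4 was that of fish 5, and without that library segment 4 ran from 107275 to 136241 with a median of 118992. The highest sum of segment 2 was that of fish 2.

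In segment 2, the library of fish 2 was the highest of the 6 for 35 of the 55 tested models (63.6%), against 23.5% of all tested gene models. Some other lists also had their highest sum of segment 2 in that library. The enteric neuron models summed to 1446 there and to 602 to 845 in the other fish, the endothelial models to 2965 and 1745 to 2264, and the exocrine pancreas models to 204871 and 24546 to 120625. The glia, leukocyte and troponin, titin and cardiac lists instead had their lowest sum of segment 2 in that library. Glia models summed to 305 there and to 375 to 599 in the other fish, and leukocyte models to 24837 and 26512 to 35384. Contraction signalling, enterocyte, fibroblast and skeletal muscle lists were highest in another fish. The part of all these lists in the contractile values was not tested. In segment 1, fish 6 was highest for 18 (32.7%, against 11.6% of all), and in segment 4, fish 1 for 17 (30.9%, against 15.0% of all). Within a segment the SD of log2 values had a median of 0.35 over the 55 models and of 0.39 over all models tested.

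Other genes of contraction were read from lists of names. Of 50 tested models of contraction signalling (calmodulin, kinases, phosphatase catalytic subunits and their regulators), 4 were higher and 7 lower in segment 4 than in segment 1 (22% called, against 31.9% of all models), with a median of -0.12 on the log2 scale. Without the segment 4 library of fish 5, 5 were higher and 5 lower. Both models of ppp1cc, a catalytic subunit of protein phosphatase 1, were lower: LABE_00002076 had medians of 7077 in segment 1 and 5711 in segment 4 (log2 -0.34, SE 0.09, adjusted p = 0.00309), and LABE_00039328 had 1848 and 1249 (log2 -0.46, SE 0.13, adjusted p = 0.00654). A model of ppp1cb (LABE_00025921), the catalytic subunit that myosin phosphatase uses, moved the other way, with medians of 149.8, 252, 1077 and 1562 in segments 1 to 4. Its highest segment 1 value was 199 and its lowest segment 3 value 685, and the step from segment 2 to segment 3 was called (log2 2.13, SE 0.26, adjusted p = 9.69e-05).

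ROCK2 (LABE_00034345), a kinase that restrains myosin phosphatase, was lower in segment 3 than in segment 1 (log2 -0.50, adjusted p = 0.00327). Its segment 1 values of 1606 to 2076 lay above all those of segments 3 (1091 to 1439) and 4 (841 to 1100).

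Of 62 tested models of dense plaques, dense bodies and the sarcoglycan complex, 12 were higher and 4 lower in segment 4 (25.8% called, against 31.9% of all models), with a median log2 fold change of 0.13. Without the segment 4 library of fish 5 there were 9 higher and 5 lower. UTRN (LABE_00014235), utrophin, which ties actin to the dystroglycan complex, had medians of 1176, 1562, 2040 and 3498 in segments 1 to 4. Its values of 2886 to 4093 in segment 4 lay above all others, and the steps from segment 2 to 3 and from segment 3 to 4 were called (log2 0.55 and 0.67, SE 0.12, adjusted p = 0.018 and 0.000344), the first lost without fish 3, fish 4 or fish 5 (adjusted p up to 0.1). Models of the list that fell include SLMAP (log2 -0.74, SE 0.08, adjusted p = 2.01e-07) and Pdlim1 (log2 -0.95, SE 0.16, adjusted p = 4.64e-05).

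Of 50 tested channels, pumps and receptors of smooth muscle, 7 were higher and 8 lower (30% called, against 31.9% of all models), with a median of 0.10. TRPC6, a cation channel, was higher (log2 0.38, SE 0.12, adjusted p = 0.0237), which was lost without fish 1, fish 2, fish 4 or fish 6 (adjusted p up to 0.111). HTR4 (LABE_00023438), a serotonin receptor, was lower (log2 -0.67, SE 0.13, adjusted p = 0.000213), as was SDPR, a protein of caveolae (log2 -0.40, SE 0.11, adjusted p = 0.00924). CACNB2 (LABE_00018941), a subunit of voltage-gated calcium channels that was picked out after its values were seen, stood at 0 to 16.5 in segment 1, 1.61 to 20.7 in segment 2, 9.53 to 97.3 in segment 3 and 127 to 424 in segment 4, so that every hind-gut library lay above all others. Of 12 tested transcription factors of gut muscle, 3 were higher and none lower in segment 4 (25% called, against 31.9% of all models), with a median of 0.17. Without the segment 4 library of fish 5, 3 were higher and 1 lower. MEF2C, which acts with SRF in muscle, had medians of 104, 205, 453 and 474 (segment 4 against 1: log2 2.64, SE 0.38, adjusted p = 9.02e-06), and Mkl1, an SRF cofactor related to myocardin, had 1784, 2094, 2840 and 2644 (log2 0.59, SE 0.11, adjusted p = 0.000197). Foxf2, a factor of the gut mesenchyme, rose by 0.88 (SE 0.29, adjusted p = 0.0245), which was lost without fish 1, fish 3, fish 4 or fish 6 (adjusted p up to 0.0862).

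Markers of other cell types were read beside all models, of which 31.9% were called between the end segments, 17.1% higher and 14.8% lower. Of 11 tested enterocyte markers, 6 were lower and none higher in segment 4 than in segment 1 (54.5% called). Their median was -0.85 on the log2 scale, and their sum was 268050 to 303554 in segment 1 and 106325 to 176351 in segment 4. Of 7 leukocyte markers, 3 were higher and none lower (42.9% called, median 0.76). Of 9 pericyte marker models, 2 were lower and none higher (22.2% called, below the share of all models, median -0.50). Both of these bore the same name, RGS5. Among markers of interstitial cells of Cajal, the pacemakers of gut muscle, 2 of 5 were lower, kit (log2 -0.90, SE 0.25, adjusted p = 0.0083) and kita (log2 -1.53, SE 0.39, adjusted p = 0.00419), and none was higher. The median of the 5 was 0.06, and 1 of them, Ano1, was higher in segment 3 than in segment 1 (log2 0.87, SE 0.18, adjusted p = 0.00191).

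Markers of fibroblasts (1 of 11 higher, 1 lower), enteric neurons (1 of 7 higher, 1 lower) and glia (1 of 4 higher, 1 lower) moved both ways. Their shares called were 18.2%, 28.6% and 50%, against 31.9% of all models. Of 7 endothelial markers 2 were lower and none higher (28.6% called). Without the segment 4 library of fish 5, 1 endothelial marker was lower and no fibroblast marker higher, since Vwf (adjusted p = 0.046, 0.0504 without it) and POSTN (0.0346, 0.0986 without it) no longer passed. Without fish 2, POSTN (0.097) did not pass either. None of 7 erythrocyte, 9 exocrine pancreas or 5 skeletal muscle models tested was called. Of 13 troponin, titin and cardiac models 4 were higher and none lower (30.8% called). Among them was ACTN2, with 0 to 9.87 in segment 1 and 3.64 to 9007 in segment 4. The highest of these is the segment 4 library of fish 5, and the highest value elsewhere was 4190, with a segment 4 median of 313. Without that library 4 of the 13 were higher and 2 lower, and without fish 2, 3 of 12 were higher. The part of these changes in the values of the contractile genes was not tested.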

How the data were processed

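The values used are those the authors deposited for 24 intestine libraries. The libraries were made with the TruSeq RNA v2 kit, which does not mark strand, so overlapping antisense genes cannot be told apart. The authors trimmed the reads with cutadapt and Sickle, checked them with FastQC 0.9.2, mapped them with TopHat to their own genome assembly, counted them with featureCounts and divided the counts by DESeq2 size factors. How reads that fit several gene models were handled was not given in the sources used here. Deposited values are in a unit of signal, the normalized read count, given to 5 significant digits. Whole reads were recovered by a factor per library, and 93.7% to 99.2% of values came out whole within 0.05. One line without a gene model was left out.

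Tests were run on log2(value + 1) with limma 3.58.1 in R 4.3.3 (trend on the mean, no robust option), all 24 libraries in 1 fit, two-sided. Fish was left out of the fit, since the study describes its DESeq2 comparison with no term for fish. Each fish gave all 4 segments, so its libraries form a true set: after the segment means were removed they correlated at 0.435 on average (0.157 or more for each pair). The mean of -0.0864 for different fish follows from removing those means and is no separate comparison. The p-values of the main fit rest on the spread between the fish of a segment and ignore this correlation within fish. The fit with fish as a block takes it into account. Alternatives were fish as a block, edgeR 4.0.16 and DESeq2 1.42.0 on the recovered reads, other pseudocounts (0.5 and 8), filters (none, or 50) and scalings, array weights, and leaving out each fish or a library. Between segments 4 and 1, limma called 6221 gene models, edgeR 6220 and DESeq2 6611. The main limma fit was checked on simulated libraries for segment 4 against segment 1. The other fits were not simulated, and the simulated libraries held no correlation within fish.

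The gene models, the accompanying lists and the alternatives were chosen with earlier results of these data known. Named are, of each role, the 3 models with the lowest F test p and the one with the highest mean, any model called against segment 1, and up to 3 called models of a list with the highest mean. Others are said to be named to complete a group or after their values were seen. Some models of the accompanying lists that this rule names are not reported here.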

Additional observations from a re-analysis of the deposited data

Results flagged for a closer look

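In groups of 6 libraries, the highest or lowest value was compared with the range of its segment on the log2(value + 1) scale. The values printed below are normalized counts. Of 104 groups, the 4 segments of each of the 26 models named by the rule, 7 held a value that stood apart from the other 5 (Dixon's 95% criterion), where chance alone marks about 1 in 20 groups. A further 16 groups came from 11 models picked because they reached at least 50 in segment 4 of fish 5. Of these groups 10 were marked, all in that library, which restates the choice of the models and is given as a description.

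The 10 in segment 4 of fish 5 were all models that did not pass the filter on low values. They were CASQ1 (LABE_00003820) at 2558, DES (LABE_00019807) at 1294.7, TPM1 (LABE_00055112) at 291.68, MYL2 (LABE_00016045) at 208.88 and SYNPO2L (LABE_00053397) at 162.46. The rest were Synpo2l (LABE_00040206) at 127.96, MYL4 (LABE_00025154) at 105.38, MYLK4 (LABE_00001917) at 99.108, LMOD1 (LABE_00036416) at 95.344 and Smtn (LABE_00039570) at 75.272. The other 5 libraries of segment 4 stood at 9.63 or less for each of them. The skeletal muscle models that were high in the same library are given with the report, and their part in these values was not tested.

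Of the 7 groups of named models, 2 lay in fish 2. Alpha cardiac actin (LABE_00027498) was at 141.66 in segment 3 of fish 2, below 446.64 to 862.85 in the other fish, and Ppp1r12c (LABE_00005614) was at 5938.6 in segment 2 of fish 2, above 3303.5 to 3823.5. In segment 4 of fish 6, MYLK (LABE_00013559) was at 4099.2, below 5132.4 to 5796.9, and srf (LABE_00073963) at 112.97, below 153.92 to 183.74. DES (LABE_00043997) was at 16283 in segment 4 of fish 1, above 9758.9 to 11746. TLN1 (LABE_00080179) was at 2373 in segment 1 of fish 5, below 2871 to 3139.9. MYOCD (LABE_00002376) was listed at 0 in segment 1 of fish 4, where the other fish stood at 10.147 to 20.952.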

How the results depend on the processing

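Left-out fish moved the number of the 55 models called to 7 to 13 over all segments (21.1% to 31.2% of all models). The number was 1 to 1 for segment 2 against 1 (0.213% to 1.49%) and 0 to 0 for 3 against 2 (0.364% to 3.14%). It was 4 to 7 for 4 against 3 (7.88% to 15.3%) and 3 to 7 for 3 against 1 (8.69% to 16.01%). It was 5 to 8 for 4 against 2 (14.9992% to 23.7%) and 8 to 12 for 4 against 1 (25.3% to 32.97%). Each highest share came without fish 2, as did the highest number wherever the numbers differed. With fish as a replicate block, 2 models were called for segment 2 against 1 (1.92% of all) and 1 for 3 against 2 (5.45%). The block gave 11 for 3 against 1 (23.2%) and 14 for 4 against 2 (30.2%). For segment 3 against 2, DESeq2 called 1 (3.48% of all) and array weights 2, whose share of all models is not given here. Of the pairs of same-name models, 0 passed with the block and 0 to 0 without a fish. These exact tests have fewer splits, and in them 2 pairs alone could not pass even at the smallest p. The fit without segment 4 replicate 5 was chosen after seeing the data.

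Of the 32 calls, counted over models and pairs of segments, 32 held with the block, 31 in edgeR, 31 in DESeq2, 27 without segment 4 of fish 5 and 17 whichever fish was left out. None of the 49 single results changed direction under those of the 18 alternatives in which it was tested, and 45 of them were tested with the filter at 50. The low models, such as those of myocardin, have few reads, which limits what differences were detectable in them at this depth.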
